A study of Mus musculus with 16 samples.

Results

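Voltage-gated sodium channel subunits were represented by 8 genes, namely the pore subunits Scn1a, Scn2a, Scn3a, Scn8a and Scn9a and the beta subunits Scn2b, Scn3b and Scn4b. They were taken from a list of gene symbols, matched by Ensembl identifier, and are 8 of the 25006 genes counted. All 8 passed the filter on low counts, and none lacked counts in any mouse. The fewest counts were 105, for Scn4b in control mouse 7, and the most were 8703, for Scn3b in control mouse 2.

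A sodium channel consists of a large pore subunit, which senses the membrane potential and conducts Na+, and of small beta subunits. The beta subunits cross the membrane with a single helix, carry an immunoglobulin-like domain outside the cell, and modify gating and placement of the channel. Channels clustered at the axon initial segment start the action potential, and dopaminergic neurons of the substantia nigra pars compacta (SNc) fire spontaneously.

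Translated mRNA of SNc dopaminergic neurons was sequenced with the RiboTag method, which pulls down ribosomes, and the mRNA on them, through a tag delivered by a Cre-dependent adeno-associated virus. The 8 control mice were DAT-Cre+/-, and the 8 MCU-KO mice were DAT-Cre+/- MCU fl/fl, so that both groups carried Cre driven by the dopamine transporter gene and received the same virus. Only MCU-KO mice carried the floxed gene of the mitochondrial calcium uniporter. Mice were at postnatal day 45, and tissue was taken 30 days after injection. Each library came from a separate mouse, and libraries held between 14129527 and 22016362 counts. For Mcu itself, the log2 fold change of MCU-KO over control (log2FC) was −1.19 (95% confidence interval, CI, −2.41 to 0.04, adjusted p = 1.00 by edgeR's quasi-likelihood test), and the groups overlapped. The authors verified the knockout separately, by PCR of Mcu mRNA from RiboTag samples and by imaging of mitochondrial Ca2+.

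The libraries were dominated by dopaminergic transcripts among the cell type markers examined. The 12 dopaminergic markers summed to between 266160 and 344684 normalized counts (counts divided by size factors) in control and to between 230160 and 391624 in MCU-KO. Transcripts of other cells were also present. The 8 oligodendrocyte markers summed to between 56400 and 110016 in control and to between 66837 and 129055 in MCU-KO, and the 8 astrocyte markers to between 8837 and 17194 and between 10379 and 20693. The 8 microglial markers reached 3223 in control and 5855 in MCU-KO, and the 5 GABAergic markers 8322 and 7718. The 3 glutamatergic markers reached 978 and 1990, with Slc17a8 at 0 in every mouse, the 4 markers of oligodendrocyte precursors 812 and 747, and the 6 endothelial markers 771 and 640. Of the 50 markers tested between genotypes, 0 had an adjusted p under 0.05 by edgeR or by DESeq2, and 2 had an unadjusted p under 0.05 by edgeR, as did 4.41% of all genes tested. In such libraries, fewer cells of a type and less RNA per cell cannot be told apart.

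The pore genes Scn3a, Scn2a, Scn1a and Scn9a lie together within 1177.8 kb of chromosome 2 of GRCm38 (the build named mm10, GENCODE M21 annotation), at chr2:65457118-65567627, chr2:65620771-65767447, chr2:66270778-66440840 and chr2:66480080-66634962. Scn2a is on the plus strand and the other three on the minus strand. Scn8a is at chr15:100869858-101045938. The beta genes are on chromosome 9, with Scn3b at chr9:40269217-40291618, Scn2b at chr9:45117782-45130070 and Scn4b at chr9:45138395-45154152, 8.32 kb downstream of Scn2b. All 4 of these genes outside chromosome 2 are on the plus strand.

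The pore genes share coding sequence, which bears on how surely a read could be assigned to any of them. The longest identical coding run was 188 bases between Scn1a and Scn2a and 184 bases between Scn3a and Scn9a, whereas the longest run common to all 5 pore genes was 26 bases. Of all stretches of 50 bases in the annotated transcripts, 6.49% in Scn3a, 5.76% in Scn2a, 4.16% in Scn9a and 4.03% in Scn1a occurred in transcripts of another gene, nearly all of them in another member. The share was 0.0374% in Scn8a, 1.01% in Scn2b, and 0 in Scn3b and Scn4b. Values of the chromosome 2 pore genes are uncertain to the extent that reads fell in these stretches, since a read lying wholly in them matches more than 1 gene. Exons of Scn9a also overlap Gm13629, an antisense gene that was not counted, and the strand setting of the counting is not given in the sources used here.

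Scn2b and Scn4b are neighbors on the same strand, and their annotated promoters (250 bases before to 50 bases after the RefSeq start, GRCm38.p6) differed in composition. The windows at chr9:45117626-45117925 (Scn2b) and chr9:45138374-45138673 (Scn4b), both on the plus strand, are shown with each CG dinucleotide in capitals, since these genes lay far apart in level despite their closeness.
Scn2b: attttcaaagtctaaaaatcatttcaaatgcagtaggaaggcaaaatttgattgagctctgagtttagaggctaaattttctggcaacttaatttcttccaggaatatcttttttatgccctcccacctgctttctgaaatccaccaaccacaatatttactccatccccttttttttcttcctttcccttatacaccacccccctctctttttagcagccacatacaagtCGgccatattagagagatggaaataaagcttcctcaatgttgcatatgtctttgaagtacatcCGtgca
Scn4b: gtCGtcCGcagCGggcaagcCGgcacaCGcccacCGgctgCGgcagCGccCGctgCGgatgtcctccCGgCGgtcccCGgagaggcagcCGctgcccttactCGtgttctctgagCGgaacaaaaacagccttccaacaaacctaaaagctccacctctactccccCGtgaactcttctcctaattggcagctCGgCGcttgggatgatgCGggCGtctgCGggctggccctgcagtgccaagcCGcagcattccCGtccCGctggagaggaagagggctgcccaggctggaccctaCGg

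The Scn2b window held 2 CG dinucleotides and the Scn4b window 26, against a median of 7 over all 32851 promoter windows. The GENCODE gene starts given above fall inside both windows. For Scn4b this start is near the upstream end, so that most of its window lies within the annotated gene. The windows are thus placed differently relative to that annotation. Windows were found for 6 of the 8 members, with a second start for Scn2a and for Scn8a. CG counts were 5 for Scn1a, 9 for Scn9a, 3 and 9 for the starts of Scn2a, and 38 and 12 for those of Scn8a. On either strand, GGGCGG was found in none of these 8 windows (35.7% of all windows held it), TATAAA in the second Scn2a window (13.6% of all) and CCAAT in those of Scn1a and Scn4b (37.4% of all). These matches describe the letters of the windows, and neither methylation nor factor binding was measured.

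Scn2a, which encodes a pore subunit of the brain that is prominent in unmyelinated axons and at the initial segment, had the most counts of the pore genes. In control mice, it ranged from 2411 to 5311 normalized counts with a median of 2732, and in MCU-KO mice from 2456 to 3967 with a median of 3146. The highest value belonged to control mouse 1, and the remaining control values lay at or below 3798, so that the groups overlapped throughout. Means were 3176 ± 978 (SD, n = 8) and 3174 ± 429 (SD, n = 8).

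Scn3a encodes a pore subunit best known from the embryonic brain. It was nevertheless second among the pore genes, with values from 1212 to 2249 and a median of 1896 in control and from 1512 to 2283 with a median of 1858 in MCU-KO. Means were 1868 ± 331 (SD, n = 8) and 1847 ± 253.5 (SD, n = 8). Apart from control mouse 6, which had the lowest value, both groups covered nearly the same range. Of the pore genes, Scn3a varied least between control mice (CV 17.7%, where counting alone gives 2.24%).

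Scn1a encodes the pore subunit whose loss of function underlies Dravet syndrome, and it is prominent in fast-spiking interneurons. Control mice ranged from 829.3 to 2376 normalized counts with a median of 1255, and MCU-KO mice from 713 to 1757 with a median of 945. In MCU-KO, 6 of 8 mice lay below the control median and 2 below every control mouse, although MCU-KO mouse 5 was above 7 of the 8 control mice. Means were 1386 ± 467 (SD, n = 8) and 1098 ± 376 (SD, n = 8).

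Scn8a encodes the principal pore subunit of mature initial segments and nodes of Ranvier and carries much of the resurgent Na+ current. Its values ranged from 975 to 2153 with a median of 1664 in control and from 892 to 1948 with a median of 1188 in MCU-KO. MCU-KO mice fell into 3 higher values, between 1634 and 1948 in mice 4, 6 and 8, and 5 lower ones, between 892 and 1350. The same 3 mice had the highest sums of astrocyte markers in MCU-KO, between 17287 and 20693 against between 10379 and 16635 in the other 5. Their sums of oligodendrocyte markers were between 94492 and 129055, against between 66837 and 101835. They also had the lowest sums of dopaminergic markers in MCU-KO, between 230160 and 301877, against between 306761 and 391624. Control mice did not follow this order, as mouse 8 combined the highest Scn8a value with the second lowest astrocyte sum. Means were 1652 ± 422 (SD, n = 8) in control and 1326 ± 432 (SD, n = 8) in MCU-KO.

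Scn9a encodes a pore subunit known from nociceptive sensory neurons, where its loss abolishes pain. It was the lowest of the pore genes, with a range from 155 to 883 and a median of 299 in control and from 300.0 to 850 with a median of 575 in MCU-KO. Control mice were divided, with mice 1, 4 and 8 between 586 and 883 and the other five at or below 305. All 8 MCU-KO mice lay above the control median, although mouse 1, at 300.0, was practically at it, and none lay above the highest control mouse. Means were 413 ± 253 (SD, n = 8) and 588 ± 184 (SD, n = 8).

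Among the beta subunits, Scn3b had the most counts of all 8 members and was steady across mice. Its product associates with the pore without a covalent bond. Values ranged from 5697 to 7664 with a median of 6957 in control and from 4728 to 7365 with a median of 6181 in MCU-KO. MCU-KO mice 1 and 3 lay below every control mouse, and the other six within the control range. Means were 6729 ± 758 (SD, n = 8) and 6211 ± 1013 (SD, n = 8).

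Scn2b, whose product is bound to the pore by a disulfide bridge, was similarly steady. It ranged from 3266 to 4861 with a median of 4057 in control and from 3641 to 5116 with a median of 3970 in MCU-KO. MCU-KO mouse 5 alone exceeded every control mouse. Means were 3984 ± 489 (SD, n = 8) and 4195 ± 539 (SD, n = 8).

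Scn4b, whose product is also disulfide-bound and has a cytoplasmic tail linked to resurgent current, was the most variable member. Control mice ranged from 108 to 902 normalized counts with a median of 323, and MCU-KO mice from 244 to 720 with a median of 440.5. Control mice 1, 4 and 7 lay between 108 and 134, below every MCU-KO mouse, whereas control mouse 6 lay above every MCU-KO mouse. Means were 384 ± 282 (SD, n = 8) and 431 ± 161 (SD, n = 8), so that the CV was 73.4% in control and 37.4% in MCU-KO, where counting alone gives 4.96% in control.

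**Figure D1:**
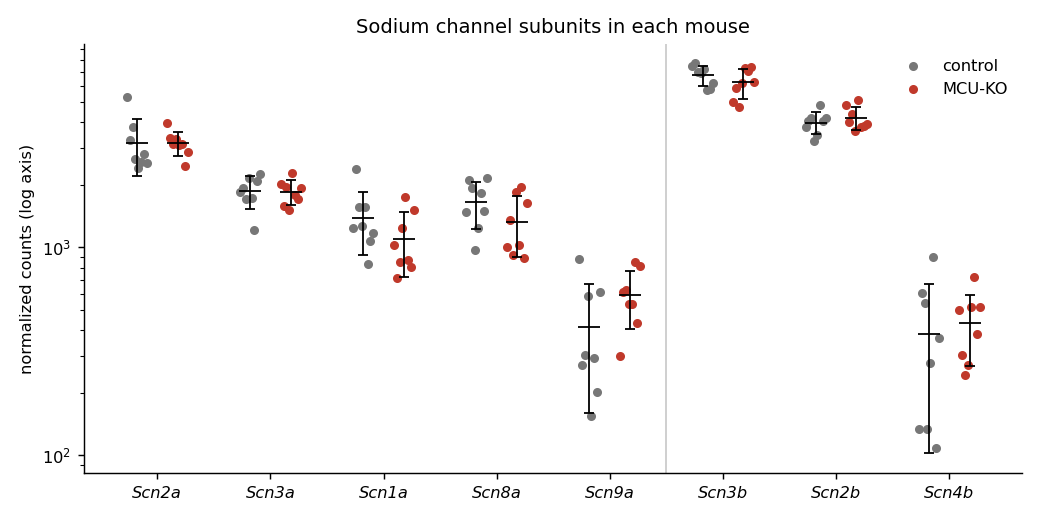
Normalized counts (log axis) of the 5 pore subunits (left of the line) and 3 beta subunits in each control (gray) and MCU-KO (red) mouse. Each point is 1 mouse, with the mean and SD in black (n = 8 per group); the groups overlap for every gene, and Scn4b in control spreads widest, from 108 to 902.

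In control mice, the CV was between 7.89 times the counting CV, for Scn3a, and 17.9 times, for Scn2a. The spread given here is therefore mainly not that of counting. With 1 library per mouse, differences between animals and those from library preparation cannot be told apart. Control mouse 6 had the lowest values of Scn1a, Scn3a and Scn3b and the highest of Scn2b and Scn4b. Without this mouse, the log2FC of Scn4b was 0.48 in place of 0.16 (adjusted p = 1.00, edgeR). The value also rested on other mice, since it was 0.04 without control mouse 1 or 4 and 0.02 without control mouse 7 or MCU-KO mouse 6. After each gene was centred within its genotype, Pearson's r between members over the 16 mice lay between −0.38, for Scn2b and Scn3b, and 0.49, for Scn8a and Scn4b. These 28 values describe mice that share a library for both genes of a pair, and members did not rise and fall as a single block.

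To compare members with each other, CPM (counts scaled to the library total times its TMM normalization factor) were divided by the length of all annotated exons of the gene (CPM per kb). On this scale the beta subunits Scn3b and Scn2b stood above the 5 pore subunits, and the beta subunit Scn4b did not. In control mice, Scn3b was highest at 63.8 ± 7.05 CPM per kb (SD, n = 8), followed by Scn2b at 44.3 ± 5.67 (SD, n = 8). Scn2a came next, first among the pore subunits, at 12.9 ± 3.97 (SD, n = 8). The remaining pore subunits were Scn3a at 7.76 ± 1.35, Scn1a at 6.44 ± 2.18, Scn8a at 5.43 ± 1.40 and Scn9a at 1.67 ± 1.02 CPM per kb (SD, n = 8 each). Scn4b, at 4.00 ± 2.96 CPM per kb (SD, n = 8), stood between Scn8a and Scn9a. Compared with the 12390 genes tested, Scn3b exceeded 91.6% of genes per kb, Scn2b 88.2%, Scn2a 69.3%, and Scn9a 22.7%. The other four lay between 42.5%, for Scn4b, and 58.1%, for Scn3a.

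The order was tested within the control mice, with an exact two-sided sign-flip permutation test of the log2 ratio for each of the 28 pairs, whose smallest possible p is 0.0078. Of the 28 pairs, 23 differed at an adjusted p under 0.05 (Benjamini-Hochberg over the 28 pairs). Scn3b exceeded Scn2b by 1.44-fold in 7 of 8 mice (adjusted p = 0.0208, exact test). Scn2b exceeded Scn2a by 3.53-fold and Scn2a exceeded Scn3a by 1.63-fold, each in 8 of 8 mice (adjusted p = 0.0109, exact test). Below this, neighbors in the order did not separate in control mice. Scn3a exceeded Scn1a by 1.24-fold in 5 of 8 mice (adjusted p = 0.130), Scn1a exceeded Scn8a by 1.17-fold in 6 mice (adjusted p = 0.258), Scn8a exceeded Scn4b by 1.70-fold in 7 mice (adjusted p = 0.0613) and Scn4b exceeded Scn9a by 2.15-fold in 6 mice (adjusted p = 0.101, exact tests). Scn1a and Scn4b also did not separate, at 2.00-fold in 7 mice (adjusted p = 0.0613, exact test).

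**Figure D2:**
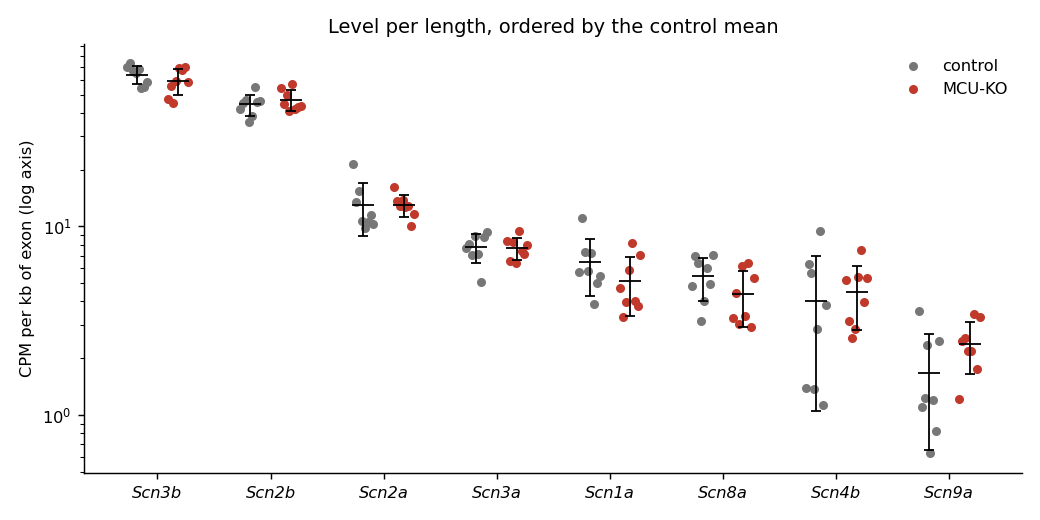
Level per length (CPM per kb of exon, log axis) of the 8 members, ordered from left to right by the control mean, in control (gray) and MCU-KO (red) mice. Each point is 1 mouse, with the mean and SD in black; Scn3b and Scn2b lie above the pore subunits in every mouse, and the levels of Scn3a, Scn1a, Scn8a and Scn4b overlap.

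The same order was seen in MCU-KO mice except that Scn4b and Scn8a changed places, at 4.49 ± 1.66 and 4.37 ± 1.42 CPM per kb (SD, n = 8 each). There, 24 of 28 pairs passed the same test. Scn3b over Scn2b did not (1.26-fold in 6 of 8 mice, adjusted p = 0.0525, exact test). Scn3a over Scn1a (1.57-fold) and Scn4b over Scn9a (1.85-fold) did, each in 8 of 8 mice (adjusted p = 0.0095, exact tests). Scn1a and Scn8a again did not separate (adjusted p = 0.362, exact test). Scn2a held position 3 in 8 of 8 control and 8 of 8 MCU-KO mice. Scn3b was first in 7 control and 6 MCU-KO mice, with Scn2b first in the others. Scn9a was last in 6 control and 8 MCU-KO mice, and Scn4b was last in the other 2 control mice. The position of Scn4b moved most, from position 4 to position 8.

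The pore subunits were also described as shares of their summed level per kb, which was 34.2 ± 5.88 CPM per kb (SD, n = 8) in control and 32.5 ± 3.41 (SD, n = 8) in MCU-KO. Scn2a made up 37.4% ± 6.17 (SD, n = 8) of the sum in control and 40.0% ± 4.84 (SD, n = 8) in MCU-KO. The share of Scn3a was 23.0% in control and 23.8% in MCU-KO, that of Scn1a 18.8% and 15.5%, and that of Scn8a 16.1% and 13.4%. Scn9a contributed 4.79% ± 2.48 (SD, n = 8) in control and 7.35% ± 2.07 (SD, n = 8) in MCU-KO. For every pore subunit, the ranges of the shares in both genotypes overlapped.

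**Figure D3:**
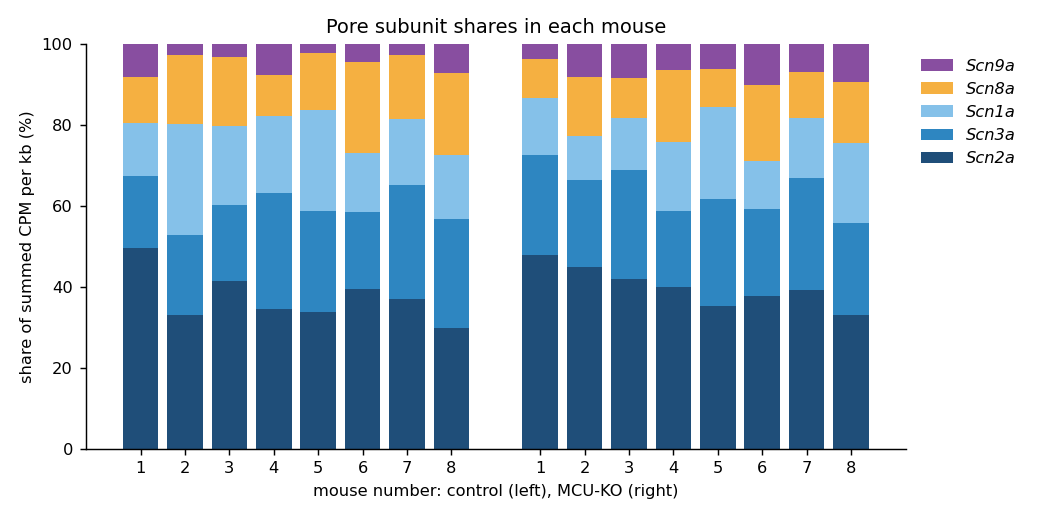
Share of each pore subunit (percent) in the summed CPM per kb of the 5 pore subunits in each mouse, control on the left and MCU-KO on the right. Each bar is 1 mouse; Scn2a takes between 29.8% and 49.6% in control and between 33.1% and 47.8% in MCU-KO, and Scn9a at most 10.1%.

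Of the summed level of the 3 beta subunits, Scn3b made up 57.0% ± 5.80 (SD, n = 8) in control and 53.4% ± 5.44 (SD, n = 8) in MCU-KO, and Scn2b 39.6% and 42.6%. Scn4b contributed 3.45% ± 2.40 (SD, n = 8) in control and 4.02% ± 1.32 (SD, n = 8) in MCU-KO. The sum of the beta subunits was 112 ± 8.26 CPM per kb (SD, n = 8) in control and 110.3 ± 10.99 (SD, n = 8) in MCU-KO. It exceeded that of the pore subunits by a ratio of 3.35 ± 0.54 (SD, n = 8) in control and 3.43 ± 0.51 (SD, n = 8) in MCU-KO. The ratio depends on the division by length, since exons spanned 11.15 to 15.77 kb in pore genes and 4.66 to 5.46 kb in beta genes. Before this division, Scn2b and Scn2a lay closer, with control means of 3984 and 3176 normalized counts. In control mouse 1, Scn2a had 5472 counts and Scn2b 3894. Whether reads covered the long transcripts evenly was not tested.

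The design compared these transcripts between MCU-KO and control mice. Since only MCU-KO mice carried the floxed gene, loss of the uniporter and other differences of the floxed line cannot be told apart. Of the 8 members, 0 had an adjusted p under 0.05 in either direction by edgeR, and 0 by DESeq2. Across all 12390 genes, edgeR called 0.178% (0.0888% higher and 0.0888% lower in MCU-KO) and DESeq2 0.404%. Before adjustment, 0 of 8 members and 4.41% of all genes had p under 0.05. The groups overlapped for 8 of 8 members, whereas they did not overlap for 0.258% of all genes. With glial, GABAergic or dopaminergic markers as a covariate, 0 of 8 members had an adjusted p under 0.05 as well. The median log2FC of the members was −0.01, and that of all genes tested was 0.003.

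The log2FC values of the most abundant members were close to 0 with narrow intervals. Scn2a had a log2FC of 0.00 (standard error 0.15, 95% CI −0.31 to 0.31, adjusted p = 1.00, edgeR). For Scn3a it was −0.02 (−0.30 to 0.27), for Scn2b 0.07 (−0.14 to 0.29), and for Scn3b −0.12 (−0.33 to 0.10). These 4 genes were the members whose 95% CI lay within a log2FC of 0.5 in either direction, as did the intervals of 20.1% of all genes. Scn1a and Scn8a brought the number of intervals within a log2FC of 1 to 6 of 8, against 51.8% of all genes.

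Scn1a and Scn8a had lower means in MCU-KO by differences within the spread between mice. The log2FC of Scn1a was −0.34 (standard error 0.22, 95% CI −0.80 to 0.12, adjusted p = 1.00, edgeR), and an exact two-sided permutation test of log2 normalized counts gave p = 0.154. Without MCU-KO mouse 5 the log2FC was −0.46, which passed an unadjusted p of 0.05 (adjusted p = 1.00, edgeR), and without control mouse 2 it was −0.18. Scn8a had a log2FC of −0.32 (standard error 0.20, 95% CI −0.74 to 0.11, adjusted p = 1.00, edgeR), with p = 0.142 in the exact permutation test. With the glial markers as a covariate the log2FC was −0.58, which passed an unadjusted p of 0.05 (adjusted p = 0.952, edgeR), and with the dopaminergic markers as a covariate it was −0.38 (adjusted p = 1.00, edgeR).

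Scn9a and Scn4b had higher means in MCU-KO with wide intervals. The log2FC of Scn9a was 0.51 (standard error 0.35, 95% CI −0.21 to 1.23, adjusted p = 1.00, edgeR), and the exact permutation test gave p = 0.0814. Control mouse 1 had the highest Scn9a value of all mice, and without it the log2FC was 0.77, which passed an unadjusted p of 0.05 (adjusted p = 0.894, edgeR). Other settings lowered the log2FC of Scn9a, to 0.39 without control mouse 5 and to 0.34 with the glial markers as a covariate. For Scn4b the log2FC was 0.16 (standard error 0.42, 95% CI −0.71 to 1.04, adjusted p = 1.00, edgeR), with p = 0.324 in the exact permutation test. The upper limits of both intervals lay above a 2-fold increase.

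**Figure D4:**
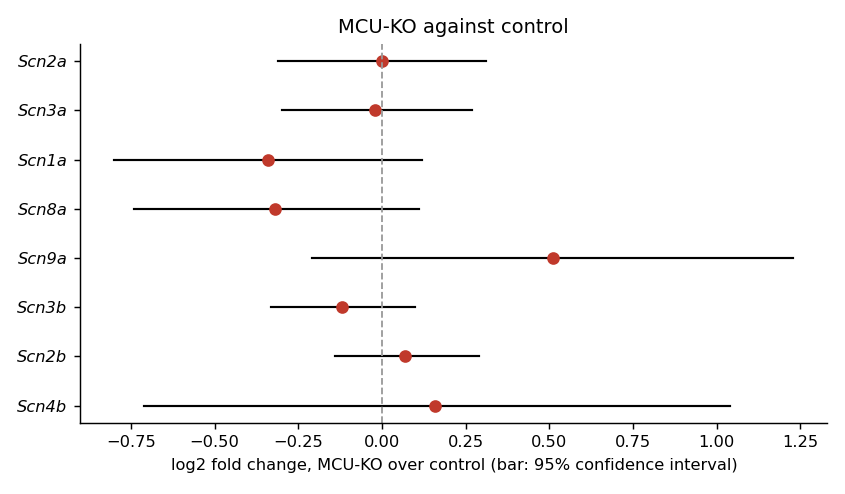
Log2 fold change of MCU-KO over control (edgeR) for the 8 members, with 95% CIs as bars. The interval of every member includes 0; that of Scn9a is wide, from −0.21 to 1.23.

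Known partners of sodium channels and further pore subunits formed a list of 35 genes reported here. Of these, 31 were tested, and 0 had an adjusted p under 0.05 in either direction (edgeR), against 0.178% of all genes. Before adjustment, 4 of the 31 had p under 0.05, against 4.41% of all genes. DESeq2 called 1 of the 31 and 0.404% of all genes. The median log2FC of the 31 was 0.01, against 0.003 for all genes tested.

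The further pore genes Scn4a, Scn7a, Scn10a and Scn11a did not pass the filter on low counts. They had at most 27 counts in any mouse for Scn4a (the muscle pore subunit), 20 for Scn7a, 1 for Scn10a and 2 for Scn11a, the last pair being pore subunits of sensory neurons.

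The fibroblast growth factor homologous factors bind the cytoplasmic tail of the pore and alter inactivation. Fgf13, the one with the smallest p of the 4 tested, had 11168 ± 2417 normalized counts (SD, n = 8) in control and 13561 ± 2863 (SD, n = 8) in MCU-KO. Its log2FC was 0.28 (standard error 0.14, adjusted p = 1.00, edgeR).

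Among the 11 genes of the axon initial segment and its adhesion molecules, 1 had an unadjusted p under 0.05, against 4.41% of all genes. This was Cntn1, an adhesion molecule that binds beta subunits, with 9832 ± 2188 normalized counts (SD, n = 8) in control and 12826 ± 2791 (SD, n = 8) in MCU-KO. Its log2FC was 0.38 (standard error 0.13, adjusted p = 0.849, edgeR).

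Among 9 genes of kinases and calmodulin, Calm3 had the smallest p. Calm3 is among the genes for calmodulin, which binds the tail of the pore subunit. It had 21982 ± 2594 normalized counts (SD, n = 8) in control and 17939 ± 1654 (SD, n = 8) in MCU-KO. The log2FC of Calm3 was −0.29 (standard error 0.08, adjusted p = 0.409, edgeR). DESeq2 gave an adjusted p of 0.0483, which makes Calm3 the partner gene whose call depended on the tool. Calm2, a further calmodulin gene named here after its values were seen, had a log2FC of 0.03.

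Among 7 genes of ubiquitin ligases, secretases and other partners, Nedd4 had the smallest p. It encodes a ubiquitin ligase of the family that removes sodium channels from the membrane. Nedd4 had 5504 ± 765 normalized counts (SD, n = 8) in control and 4237 ± 702.5 (SD, n = 8) in MCU-KO. The log2FC of Nedd4 was −0.38 (standard error 0.11, adjusted p = 0.557, edgeR). The fourth partner gene at an unadjusted p under 0.05 was Dpysl2, named after its values were seen, with a log2FC of 0.25 (adjusted p = 1.00, edgeR).

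To describe which transcripts varied together with each member, log2 CPM centred within genotype was correlated over the 16 mice with 8933 genes, and the 2 genes with the highest Pearson's r are given. For Scn2a these were C230004F18Rik (r = 0.83) and Nalcn, the sodium leak channel (r = 0.80). Scn3b was most alike to Rab3b, a small GTPase of synaptic vesicles (r = 0.87), and Rnf13 (r = 0.78), and Scn3a to Pdcd4 (r = 0.87) and Ocel1 (r = 0.85). Scn8a was most alike to Ly6c1 (r = 0.82) and Cmtm5 (r = 0.80), and Scn1a to Mia2 (r = 0.79) and 2310039H08Rik (r = 0.78). For Scn9a, Spcs3 and Dbpht2 had r = 0.81 each, for Scn2b Dnajc21 and Sft2d1 had r = 0.83 each, and for Scn4b Slx1b had r = 0.84 and G6pc3 r = 0.78. No member was among the closest genes of another. Both values of each pair come from the same library, and the highest of 8933 values is large by selection.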

How the data were processed

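RiboTag libraries of 8 control and 8 MCU-KO mice were analyzed, grouped by the genotype in the sample labels. After trimming, the authors mapped the reads to mm10 by STAR and assigned them to Ensembl genes by htseq-count. The deposited values are whole-number read counts that were not normalized. Versions, strand setting and Ensembl release are not given in the sources used here. Reads that match several genes cannot be told apart in such counts. Totals lay between 14129527 and 22016362, and intervals reflect the spread between mice.

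Symbols, exon lengths and coordinates were from GENCODE M21 (24991 of 25006 identifiers matched) and promoters from RefSeq. Genotypes were compared with edgeR 4.0.16 in R 4.3.3 (filterByExpr, TMM, quasi-likelihood test) over 12390 genes, with Benjamini-Hochberg adjustment and a threshold of 0.05. Normalized counts are counts divided by DESeq2 1.42.0 size factors. Ratios between members used a pseudocount of 1 count. Alternatives were DESeq2, limma 3.58.1 with voom, other normalizations and filters, marker covariates, a mouse-number block, other lengths and pseudocounts, and the omission of each mouse.

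The members and gene lists were chosen with earlier results of these data known. Named genes are the members, Mcu, partner genes with an adjusted p under 0.05 or the smallest p of their list, and the 2 genes most alike to each member with a mean of at least 100 normalized counts, among genes with at least 10 counts in every mouse. The covariates for GABAergic and dopaminergic markers, the longest coding transcript as length, and the order in MCU-KO mice were chosen after seeing the data. Some partner genes and a shared coding sequence are not reported here. Apart from the authors' verification of the knockout, their other experiments were not used here.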

Additional observations from a re-analysis of the deposited data

Results flagged for a closer look

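Among 34 groups of 8 values examined for a mouse lying apart from the rest (members, marker sums and library totals), 3 had such a mouse, where chance gives about 1 in 20, or 1.7. No value of a sodium channel member was among them. MCU-KO mouse 8 had a library total of 14129527 counts, and the other MCU-KO mice lay between 19897268 and 20582204. The summed GABAergic markers were 8322 normalized counts in control mouse 3, against between 3717 and 5799 in the other control mice. They were 7718 in MCU-KO mouse 6, against between 3291 and 5007 in the other MCU-KO mice, and this mouse also had the highest Scn4b, Scn8a and Scn9a values of its group. In the same mouse, the dopaminergic sum was the lowest of all 16 mice (230160), and the microglial (5855), glutamatergic (1990), oligodendrocyte precursor (747) and endothelial (640) sums were the highest of its group. Without this mouse, the log2 fold change was 0.02 for Scn4b, −0.42 for Scn8a and 0.42 for Scn9a, with no adjusted p under 0.05 (edgeR).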

How the results depend on the processing

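No member had an adjusted p under 0.05 under any of the alternatives, and the smallest adjusted p of a member was 0.677. The number of genes called over all genes was 22, and it was 50 with DESeq2 and between 18 and 24 without 1 mouse. Partner genes called rose from 0 to 1 with DESeq2, which was Calm3 (log2 fold change −0.29, adjusted p = 0.0483). The sign of values near 0 turned. Scn2a was 0.07 with limma-voom, 0.01 with upper-quartile normalization, 0.003 without a filter, 0.01 with at least 10 counts in every mouse, 0.04 and 0.01 with GABAergic and dopaminergic covariates, 0.04 in the exact permutation test, and between −0.05 and 0.15 without 1 mouse. With glial markers as a covariate, Scn3a was 0.02 and Scn4b −0.02, and without 1 mouse Scn3a lay between −0.08 and 0.03. The cause was not tested. Of the order in control mice, between 21 and 25 of 28 pairs passed without 1 mouse. Without division by length, the log2 ratio of Scn1a to Scn8a was −0.27 and that of Scn4b to Scn9a −0.25, and in MCU-KO mice that of Scn8a to Scn4b was −0.02.

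Same-numbered mice are different animals. The correlation of their deviations lay between −0.061 and 0.031, and 0 of 16 mice correlated best with their own number. These values gave no sign of pairing by number, and a weaker link was not tested. With the mouse number as a replicate block, 14 genes were called in place of 22, 0 of them members, and Scn2a had a log2 fold change of 0.04. The block moved Scn4b and Scn9a most, from 0.16 to 0.46 and from 0.51 to 0.71.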
